A study of Rattus norvegicus with 6 samples.

Results

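The nuclear genes of the mitochondrial respiratory chain were followed in a rat β-cell line after siRNA against COUP-TFII. Probe sets were taken where the platform annotation gives 1 symbol and that symbol begins with Nduf, Uqcr, Cox4 to Cox8 or Atp5, or is Sdha, Sdhb, Sdhc, Sdhd, Cyc1 or Cycs. On such arrays a transcript is read by a set of short oligonucleotides, whose combined intensity is the signal. The rule gave 97 probe sets of 87 genes, among 31042 probe sets and 14217 singly named genes on the array. They comprised 37 probe sets of 34 complex I genes, 7 of 6 complex I assembly factors (Ndufaf genes), 5 of 4 complex II genes, 9 of 8 complex III genes, 19 of 19 complex IV genes and 20 of 16 complex V genes. Ndufa4, which carries a complex I name but is a subunit of complex IV, was counted in complex IV, as was its paralog Ndufa4l2. By name complex IV also holds the pseudogene Cox6c-ps1 and Cox7a2l, a factor of supercomplexes of the chain. Another 9 probe sets carry several symbols and were left out, so that Cycs has no member probe set here.

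The cells were the 832/13 clone of INS-1, a rat insulinoma line, at passages 7 to 25 in medium with 11 mM glucose. COUP-TFII siRNA or, as the control, a scrambled siRNA was brought into the cells by electroporation with an Amaxa device. The control cells thus had the same line, medium and electroporation. Total RNA of 3 samples per group was hybridised to 1 Affymetrix rat array each, and the labels call the 3 samples of a group biological replicates. The line is 1 clone, and nothing below speaks of islets or of other β-cells.

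On the most responsive of 3 probe sets for Nr2f2, the gene of COUP-TFII, the signals were 47.0, 27.7 and 23.8 with COUP-TFII siRNA and 182, 235 and 179 with scrambled siRNA. The groups were far apart on every array (log2 fold change -2.65, SE 0.30, adjusted p = 0.404 with limma and 0.0185 with the replicate number as a block). Each SE here and below is that of limma without the block, unless the block is named with it. The second probe set gave -1.71 and the third, near background in both groups, -0.37. All 11 measured β-cell markers were above the background scale, and all 7 exocrine markers were at it. Of 7 markers of fibroblasts, endothelium or blood, Cd68 alone was above it. Among the other islet markers Sst and Ghrl were at background, and Ppy was little above it. The means of Ppy were 24.8 with COUP-TFII siRNA and 26.7 with scrambled siRNA. The glucagon gene Gcg gave 8056, 4789 and 817 with COUP-TFII siRNA and 6313, 3397 and 394 with scrambled siRNA. Gcg thus differed far more between replicate numbers than between the siRNAs. The part of Gcg in the values below was not tested. In RNA of whole cultures fewer cells of a kind and less RNA per cell cannot be told apart.

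The respiratory chain oxidises NADH and succinate and passes the electrons to oxygen. Complex I takes electrons from NADH and complex II from succinate, both hand them to ubiquinone, complex III passes them on to cytochrome c, and complex IV gives them to oxygen. The proton gradient built by complexes I, III and IV drives ATP synthesis by complex V. In the β-cell the ATP made in this way closes the ATP-sensitive potassium channel when glucose is high, which opens the path to calcium entry and insulin release. Most subunits are encoded in the nucleus, and a few in mitochondrial DNA.

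The promoters of 4 subunits named in the results below are shown for reference. Atp5f1b, Atp5me and Ndufv1 had the lowest p within pairs among the probe sets above background. Uqcrq was 1 of 4 higher probe sets whose groups did not overlap. The others were of Cox7b, Ndufa4 and Atp5if1, and Cox7b had a larger log2 fold change (0.27, against 0.21 for Uqcrq). Their promoters are not shown, so the lines below cannot link a motif to a result. Each line gives the 120 bases before the RefSeq start of the gene on the assembly GRCr8, from 120 to 1 bases before the start, 5′ to 3′ on the gene's strand. They lie at chr7:1099938-1100057 (+), chr14:1464740-1464859 (+), chr1:210734892-210735011 (-) and chr10:38089979-38090098 (-), upstream of the annotated transcripts. Capitals mark matches to the core motifs of 2 activators of mitochondrial genes, GCATGCGC of NRF1 and CCGGAAGT of the ETS family (which includes NRF2/GABP).
Atp5f1b: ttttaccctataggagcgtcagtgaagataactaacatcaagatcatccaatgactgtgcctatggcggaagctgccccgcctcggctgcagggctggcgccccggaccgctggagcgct
Atp5me: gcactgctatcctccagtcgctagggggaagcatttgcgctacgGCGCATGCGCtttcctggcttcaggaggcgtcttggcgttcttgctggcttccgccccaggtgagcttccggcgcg
Ndufv1: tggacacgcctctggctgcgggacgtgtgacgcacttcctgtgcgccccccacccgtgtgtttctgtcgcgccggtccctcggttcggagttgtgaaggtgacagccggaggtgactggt
Uqcrq: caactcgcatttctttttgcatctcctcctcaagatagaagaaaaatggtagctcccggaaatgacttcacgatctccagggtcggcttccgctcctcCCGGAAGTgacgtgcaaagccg

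In Atp5me the NRF1 core is read on both strands, since the capitals hold it once in each direction, and in Uqcrq the ETS core begins 22 bases before the start. Neither motif is in the 120 bases shown for Atp5f1b or Ndufv1. RefSeq promoters of 250 bases before to 50 after the start were at hand for 78 of the 87 genes. In these, on either strand, the NRF1 core was present in 9 (11.5%, against 2.66% of all 27457 promoters), the ETS core in 8 (10.3%, against 4.01%) and AAGATGGCG, the motif of YY1, in 11 (14.1%, against 1.93%). Of the 11 promoters with the YY1 motif 7 belong to complex I genes, Ndufb8 and Ndufs7 among them. All matches to the YY1 motif were on the gene's own strand. Apart from that of Atp5pf, at -111, they began between -1 (Uqcrc1) and 37 (Atp5mf) relative to the start. Most thus lay in transcribed bases, and whether they act as promoter elements was not tested. At least 1 of the 3 motifs was in 26 of the 78 (33.3%, against 8.06%). The letters AGGTCA repeated directly after 1 base, a form of the element to which COUP-TFII is known to bind, were in 0 of the 78 and in 16 (0.0583%) of all promoters. A string this rare is hardly to be met among 78 promoters, so the 0 says nothing about COUP-TFII sites in them. Matches describe letters only, and no binding was measured.

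By mean signal most respiratory chain probe sets were slightly higher with COUP-TFII siRNA, and none passed the test. Of the 97 probe sets 77 were higher and 20 lower by mean with COUP-TFII siRNA, with a median log2 fold change of 0.076 (quartiles 0.024 and 0.13). Over all 31042 probe sets 49.6% were higher and the median was -0.0031. No member passed an adjusted p of 0.05 in limma, unpaired or with the block, and the lowest adjusted p was 1 and 0.777. Across the array the unpaired fit called 0.0% and the blocked fit 0.0161% at that threshold. At an unadjusted p up to 0.05 the unpaired fit gave 0 members higher and 1 lower, where 0.973% and 1.34% of all probe sets passed. The blocked fit gave 1 higher (Ndufv1) and 2 lower (Atp5f1b and Atp5me), where 2.72% and 3.51% of all passed. These counts of members are near or below the shares of the whole array. The 95% interval of a log2 fold change reached 0.37 to either side in the median member, so that changes of this size could not be told from 0.

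**Figure D1:**
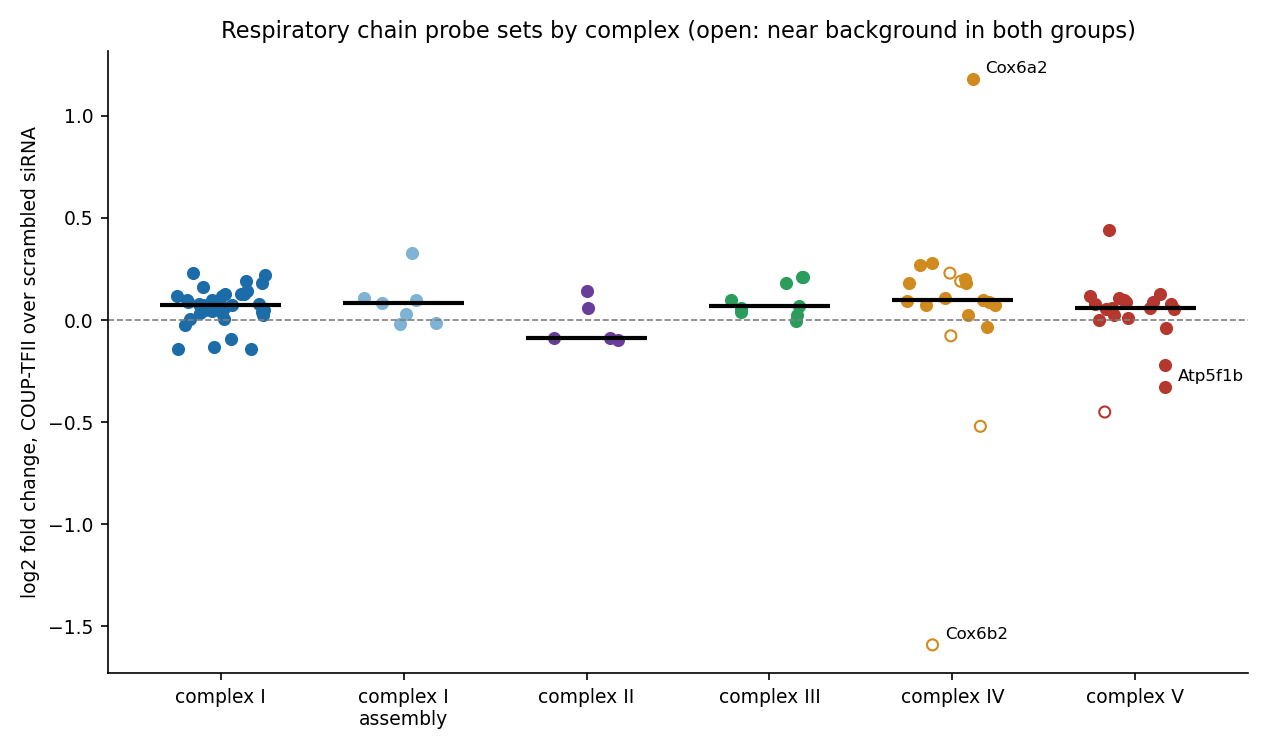
Log2 fold change (COUP-TFII over scrambled siRNA, n = 3 arrays per group) of the 97 respiratory chain probe sets by complex, with the median of each complex as a black line. Open circles are probe sets near background in both groups. Most points lie just above 0, complex II has a median of -0.086, Atp5f1b lies at -0.33, and the widest points, Cox6b2 and Cox6a2, have low signals.

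Most of these probe sets were bright, and bright probe sets as a whole leaned the same way. Of the 97, 74 were in the 10% of the array with the highest mean signal (3105 probe sets, lowest mean signal 484), and 6 were near background in both groups (6.19%, against 37.5% of all), by a scale of 20.7 set from bacterial control probe sets. In that brightest 10% 61.4% of probe sets were higher with COUP-TFII siRNA and the median was 0.039. The 74 members in it had a median of 0.080, and 63 were higher. After quantile normalization the median of all 97 was 0.013 with 55 higher (56.7%), and that of the brightest 10% 0.0077 with 52.7% higher.

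The lean was not the same in the same-numbered pairs of arrays. The median difference of the 97 probe sets was 0.060 in pair 1 (64 higher), 0.17 in pair 2 (79 higher) and -0.0076 in pair 3 (45 higher). In the brightest 10% these medians were 0.029, 0.058 and 0.0095. Without the COUP-TFII siRNA array of replicate 2 the median of the 97 was -0.0092 and 46.4% were higher, and without both arrays of replicate 2 it was 0.024 with 59 higher (60.8%, against 56.5% of the brightest 10%). On the scrambled siRNA array of replicate 2 the top of the scale was also lower than elsewhere. Its highest member signal was 7434, against 8482 to 9136 on the other arrays, and the mean of its cre control signals was 5901, against 8276 to 9583. The part of this in pair 2 was not tested.

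**Figure D2:**
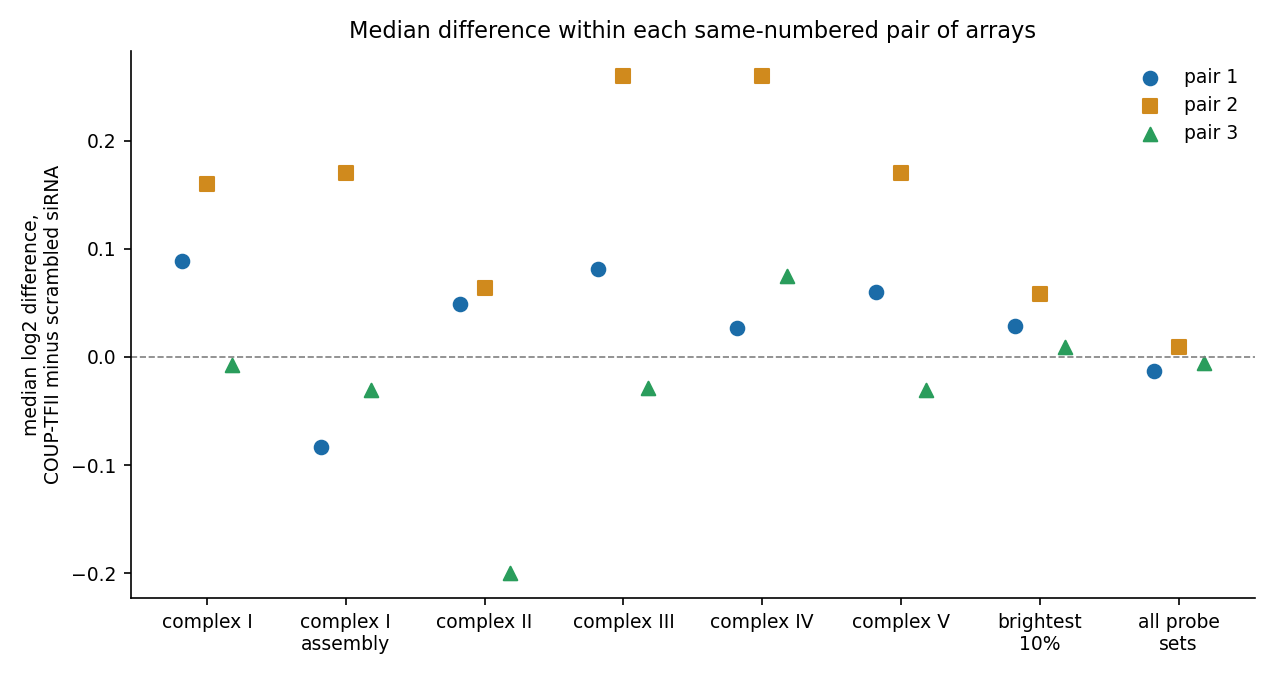
Median log2 difference (COUP-TFII minus scrambled siRNA) within each same-numbered pair of arrays, for each complex, for the 3105 brightest probe sets and for all 31042. Pair 2 is the highest in every complex, pair 3 is below 0 in all of them but complex IV, and all probe sets together lie within 0.013 of 0.

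In all 3 pairs 22 members were higher (22.7%) and 3 lower (3.09%). Over the whole array the shares were 13.4% and 14.0%, and in the brightest 10% 22.9% and 11.9%, so the share of members higher in all pairs was near that of bright probe sets. The groups did not overlap for 4 members that were higher (4.12%, against 3.25% of all), namely Uqcrq, Cox7b, Ndufa4 and 1 probe set of Atp5if1, and for 1 that was lower (1.03%, against 3.49%), namely Cox6b2.

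Complex I was measured by the largest number of probe sets, of which 32 of 37 were higher by mean (median 0.074, and 0.089, 0.16 and -0.0076 in the 3 pairs). Its subunits fall into core subunits, some of which hold the flavin and the iron-sulphur clusters, and accessory subunits around them. Of the 6 core probe sets 4 were higher (median 0.039), and of the 31 accessory ones 28 (median 0.081). Without the COUP-TFII siRNA array of replicate 2 the median of complex I was -0.019. Without both arrays of replicate 2 it was 0.053 with 28 higher, and after quantile normalization 0.04 with 24 higher.

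Ndufv1, the flavoprotein that takes up the electrons of NADH, gave signals of 1885, 2168 and 1943 with COUP-TFII siRNA and 1660, 1927 and 1659 with scrambled siRNA. It was higher in every pair by a like amount, 0.18, 0.17 and 0.23 on the log2 scale, although the groups overlapped. Its log2 fold change was 0.19 (SE 0.14, or 0.085 with the block, limma adjusted p = 0.797 with the block).

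The other core subunits lay nearer to 0. Ndufs1, the largest iron-sulphur subunit, gave 638, 802 and 688 with COUP-TFII siRNA and 615, 668 and 736 with scrambled siRNA (log2 fold change 0.073, SE 0.14). Ndufs3, which lies in the arm that links the electron path to the membrane, gave 903, 1257 and 884 against 867, 1322 and 863 (0.0071, SE 0.21). For Ndufs3 replicate 2 was the highest in both groups, well above any difference between the siRNAs. Ndufs7 and Ndufs8 carry the clusters nearest to ubiquinone, and their log2 fold changes were -0.024 (SE 0.29) and 0.072 (SE 0.20). Ndufv2, the partner of Ndufv1, had a lower mean with COUP-TFII siRNA (-0.093, SE 0.22) but was higher in pair 2.

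Among accessory subunits the lowest p were those of Ndufb3 and Ndufb8, both of the membrane arm. Ndufb3 gave 1590, 1649 and 1683 with COUP-TFII siRNA and 1210, 1321 and 1725 with scrambled siRNA, so that the third pair did not share the difference (log2 fold change 0.23, SE 0.16). Ndufb8, whose protein is often used as a marker of assembled complex I, gave 697, 600 and 509 against 480, 590 and 475. It was higher in all pairs, mostly by pair 1 (0.54, 0.026 and 0.10 on the log2 scale, mean 0.22, SE 0.16). Ndufa5, an accessory subunit of the matrix arm picked out after its values were seen, gave 549, 710 and 594 against 425, 1184 and 621 (-0.14, SE 0.32), and it was the scrambled siRNA array of replicate 2 that stood apart. The 7 assembly factor probe sets, of genes that build complex I but are not part of it, ran from -0.019 to 0.33 (median 0.083), with pair medians of -0.083, 0.17 and -0.031, and a median of -0.041 without both arrays of replicate 2.

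Complex II, or succinate dehydrogenase, is part of the citric acid cycle as well as of the chain, and its 4 genes are all nuclear. It had the lowest median of the 5 complexes, -0.086 with 2 of 5 probe sets higher, but pair medians of 0.049, 0.064 and -0.20, so that pair 3 alone was lower. Sdhd counts with 2 probe sets here, and with 1 probe set per gene the median was -0.013. Without the COUP-TFII siRNA array of replicate 3 the median was 0.093. Sdha, the flavoprotein, gave 1110, 1358 and 1118 with COUP-TFII siRNA and 1215, 1330 and 1281 with scrambled siRNA (log2 fold change -0.099, SE 0.14). Sdhb, the iron-sulphur subunit, was higher in all 3 pairs, with 1336, 1673 and 1297 against 1272, 1541 and 1103 (0.14, SE 0.17). The membrane anchors lay close to 0, Sdhc at 0.059 (SE 0.14) and the 2 probe sets of Sdhd at -0.086 (SE 0.20) and -0.088 (SE 0.17). Catalytic subunits of the same enzyme thus had means on opposite sides of 0, each within its error.

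Complex III was higher by mean in 8 of 9 probe sets (median 0.067, and 0.081, 0.26 and -0.029 in the pairs). After quantile normalization 6 were higher (median 0.015), and without both arrays of replicate 2 the median was 0.034. The 3 with the lowest p encode small accessory subunits. Uqcrq gave 3682, 4499 and 4207 with COUP-TFII siRNA and 3480, 3667 and 3515 with scrambled siRNA, without overlap. Its log2 fold change was 0.21 (SE 0.15, or 0.1 with the block, limma adjusted p = 0.797 with the block). Uqcrh, the hinge protein beside cytochrome c1, gave 3147, 3967 and 3240 against 2818, 3256 and 2879 and was also higher in all pairs (0.21, SE 0.15). Uqcr10 was higher in pairs 1 and 2 (0.18, SE 0.17).

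The catalytic and core subunits of complex III were nearer to 0. Cytochrome c1, Cyc1, gave 2716, 3568 and 1981 against 2578, 2881 and 2249, the pairs differing in sign (0.067, SE 0.22). The Rieske protein Uqcrfs1 was at 0.10 (SE 0.17) and the core protein Uqcrc1 at 0.059 (SE 0.13), with 1162, 1184 and 1012 against 1070, 1159 and 995. Uqcrc2 has 2 probe sets, at 0.026 (SE 0.14) and 0.041 (SE 0.24).

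Complex IV, cytochrome c oxidase, has a core made in the mitochondrion and nuclear subunits, some of which exist as isoforms of particular tissues. Of its 19 probe sets 15 were higher by mean (median 0.10, and 0.027, 0.26 and 0.075 in the pairs). The 15 include the pseudogene Cox6c-ps1 and the supercomplex factor Cox7a2l. Of its 10 ubiquitous nuclear subunits 9 were higher (median 0.10), and 5 after quantile normalization (median 0.0043). Cox7b gave 8584, 8123 and 7037 with COUP-TFII siRNA and 6908, 6287 and 6508 with scrambled siRNA, without overlap. Its log2 fold change was 0.27 (SE 0.16, or 0.12 with the block, limma adjusted p = 0.797 with the block). Ndufa4 gave 6189, 6663 and 5488 against 5413, 5471 and 5304, again without overlap (0.18, SE 0.15). After quantile normalization these differences were 0.12 for Cox7b and 0.052 for Ndufa4.

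Cox4i1, the main form of the largest nuclear subunit, was close to 0, with 4305, 4290 and 4166 against 4246, 3984 and 4886 (-0.034, SE 0.15). Cox5a and Cox5b, which with it lie on the matrix side and around the core, were at 0.28 (SE 0.22) and 0.093 (SE 0.19). The value of Cox5a came from pair 2, where the signals were 236 and 132, and without both arrays of replicate 2 it was -0.0028. Cox6a1, Cox6b1 and Cox8a, the forms found in most tissues, were at 0.18 (SE 0.17), 0.10 (SE 0.16) and 0.11 (SE 0.16).

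The tissue isoforms were largely at background, with 5 of the 7 isoform and paralog probe sets near it in both groups. They include Cox4i2 of lung, Cox7a1 and Cox8b of heart and muscle, and Cox6b2 of testis. Cox6b2, whose groups did not overlap, had signals of 1.07, 0.978 and 0.707 with COUP-TFII siRNA and 4.89, 2.32 and 2.57 with scrambled siRNA. Its log2 fold change of -1.59 (SE 0.65, limma adjusted p = 1) is a difference among signals far under the background scale of 20.7. Cox7a1 gave -0.52 (SE 0.81), Cox4i2 0.23 (SE 0.67) and Cox8b 0.19 (SE 0.64), so that an error of this size would hide changes of well over 2-fold.

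Cox6a2, the heart and muscle form of Cox6a, was above background in replicate 2 and in no other replicate. Its signals were 5.16, 56.0 and 11.2 with COUP-TFII siRNA and 3.63, 30.6 and 2.51 with scrambled siRNA. On both sides the replicate 2 array was far above the mean of the others, by 2.88 and 3.34 on the log2 scale. Within pairs COUP-TFII siRNA was higher by 0.51, 0.87 and 2.16 (mean 1.18, SE 1.18).

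**Figure D3:**
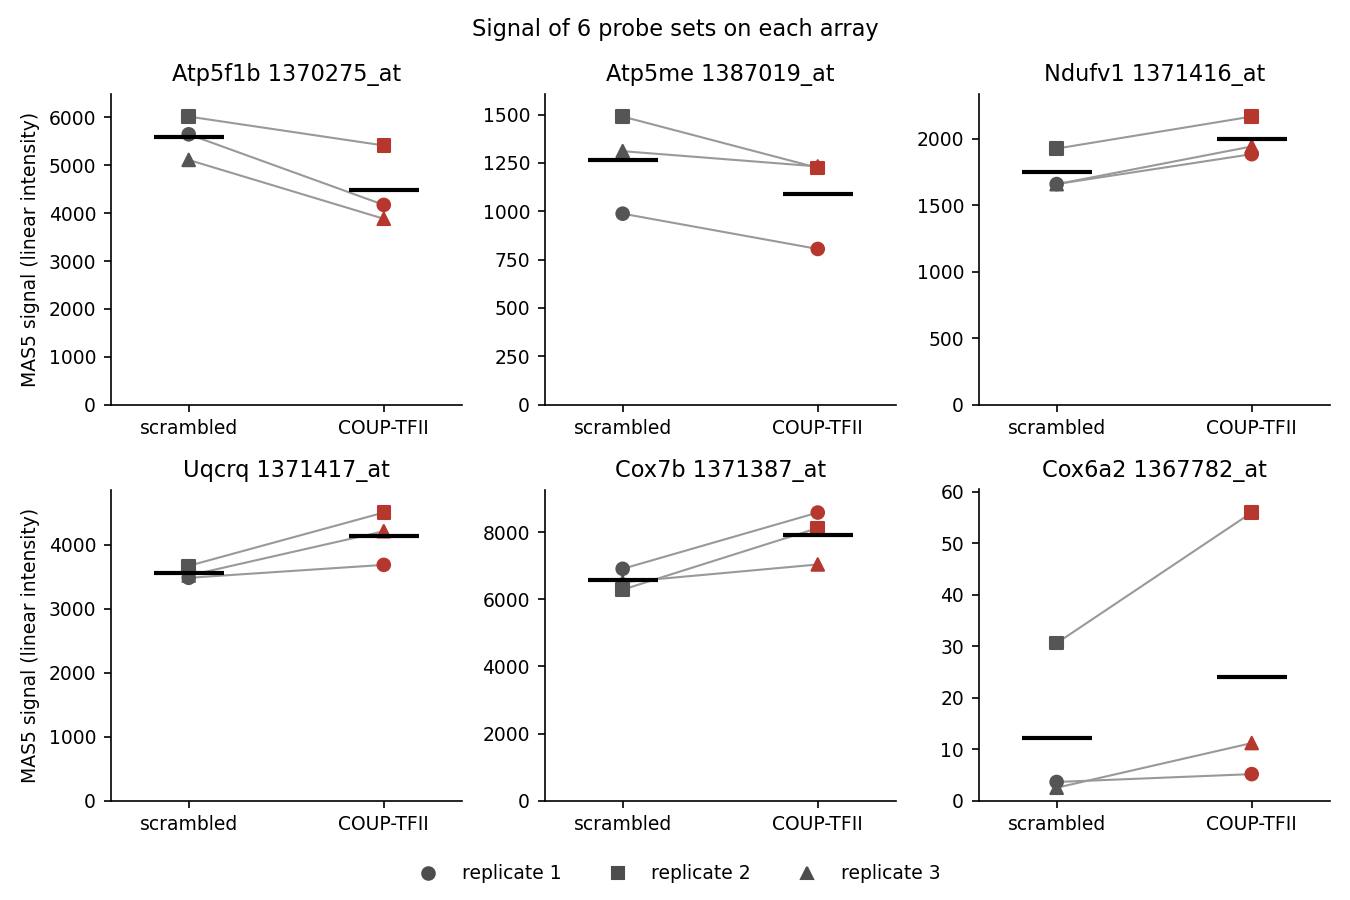
MAS5 signal (linear intensity) of 6 probe sets on each array, with a grey line joining arrays of the same replicate number, a black bar at the mean of 3 arrays, and axes that start at 0. Atp5f1b and Atp5me are lower and Ndufv1, Uqcrq and Cox7b higher with COUP-TFII siRNA in all 3 pairs, while Cox6a2 is set apart by replicate 2.

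In complex V, the ATP synthase, most probe sets were higher by mean but 2 were lower in every pair. Of its 20 probe sets 15 were higher by mean (median 0.057, and 0.060, 0.17 and -0.031 in the pairs), or 6 after quantile normalization, when the median was -0.022. Atp5f1b, the β subunit that carries the catalytic sites, gave 4172, 5413 and 3882 with COUP-TFII siRNA and 5646, 6017 and 5111 with scrambled siRNA. The COUP-TFII siRNA signal was the lower of each pair, by 0.44, 0.15 and 0.40 on the log2 scale, and the groups overlapped only because the COUP-TFII siRNA signal of replicate 2 exceeded the scrambled siRNA signal of replicate 3. The mean with COUP-TFII siRNA was 4489 ± 813 (SD, n = 3) and with scrambled siRNA 5591 ± 455 (SD, n = 3). Its log2 fold change was -0.33 (SE 0.18), or 0.796 of the scrambled level, with a limma adjusted p of 1 unpaired and 0.777 with the block. It ran from -0.47 to -0.23 with 1 array left out and was -0.45 after quantile normalization.

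The α subunit Atp5f1a, which alternates with β in the same ring, was not lower in every pair, with 4954, 5894 and 4225 against 4837, 4725 and 4830 (0.053, SE 0.17). Atp5mc3, the one gene for the proton-carrying c subunit with a member probe set, gave 4534, 5015 and 4054 against 4535, 4103 and 4203 (0.079, SE 0.15). Whether Atp5f1b differed from these subunits was not tested.

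Atp5me, the e subunit of the membrane part, where pairs of synthases are held together, gave 805, 1225 and 1232 with COUP-TFII siRNA and 988, 1490 and 1311 with scrambled siRNA. It was lower in all pairs, by 0.29, 0.28 and 0.090, while the replicates of a group spread further than that. The log2 fold change was -0.22 (SE 0.22, or 0.086 with the block, limma adjusted p = 0.796 with the block). Its second probe set was near background and gave -0.45 (SE 0.96). Atp5if1, the inhibitor that stops the synthase from running backwards, has 3 probe sets that differ. The brightest gave 2261, 2308 and 2090 against 2008, 2177 and 1888 (0.13, SE 0.13), the one without overlap gave 76.0, 64.0 and 73.0 against 56.2, 40.5 and 62.8 (0.44, SE 0.27), and the third was at -0.037 (SE 0.46).

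In both groups replicate 2 stood above the others for most probe sets of complexes I, II and III. It was compared with the mean of replicates 1 and 3 within each group, as a description, and the replicates of the 2 groups share their number. It was higher in both groups for 62 of the 97 members (63.9%, against 56.3% of the brightest 10% and 27.9% of all), by a median of 0.28 with COUP-TFII siRNA and 0.12 with scrambled siRNA (0.14 and 0.11 in the brightest 10%). This held for 30 of 37 complex I, 5 of 5 complex II and 7 of 9 complex III probe sets, but for 6 of 19 of complex IV and 9 of 20 of complex V. Gene lists outside the rule, given further below, shared it in part. It held for 63.6% of ubiquinone synthesis and electron entry, 59.7% of other assembly factor and 57.9% of citric acid cycle probe sets. The share was 38.7% of regulators, 20.0% of carriers and 0 of the 2 mitochondrially encoded subunits. The core of complex I stood highest, by 0.49 and 0.34. Ndufs7 was higher on replicate 2 by 0.63 and 0.85, with signals of 721, 1072 and 669 with COUP-TFII siRNA and 797, 1211 and 563 with scrambled siRNA. Ndufs3 was higher by 0.49 and 0.61 and Ndufs8 by 0.49 and 0.47. One probe set of Uqcrc2 went the other way, by -0.42 and -0.61, while the other was at 0.0027 and -0.12.

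**Figure D4:**
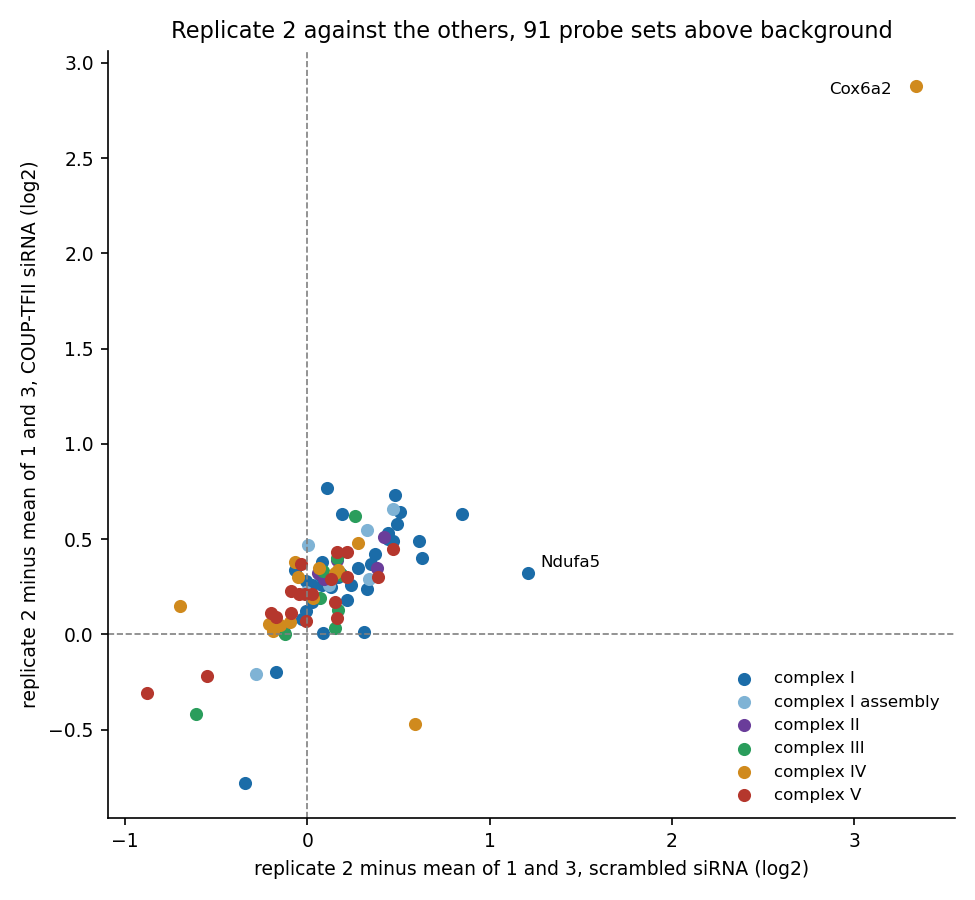
Log2 difference of replicate 2 from the mean of replicates 1 and 3 among scrambled siRNA arrays (x axis) and among COUP-TFII siRNA arrays (y axis), for the 91 respiratory chain probe sets above background, coloured by complex. Most complex I and II points lie in the upper right, above 0 in both groups, and Cox6a2 lies alone at 3.34 and 2.88.

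The 2 arrays of replicate 2 also differed in their controls. The mean signal of the bioC spikes, bacterial transcripts added to every hybridisation, was 126 and 101 on them and 496 to 531 on the other 4 arrays. The ratio of 3′ to 5′ actin signals, a sign of RNA integrity and labelling length, ran from 2.64 to 3.39 with the highest value on the COUP-TFII siRNA array of replicate 2, and that of Gapdh from 0.974 to 1.09. The part of these in the difference of replicate 2 was not tested.

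Of the chain's 2 mitochondrially encoded subunits that the array names, both belong to complex IV. COX1, which holds the site of oxygen reduction, gave 15170, 15440 and 13800 with COUP-TFII siRNA and 15920, 9264 and 12310 with scrambled siRNA (log2 fold change 0.28, SE 0.23). COX2 gave 17060, 16110 and 15090 against 17960, 10890 and 14240 (0.19, SE 0.23). In both, pair 1 was just under 0 and the value came from the low scrambled siRNA array of replicate 2. The median of this pair of genes was 0.041 after quantile normalization.

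Factors that assemble the chain but fall outside the naming rule gave 62 probe sets of 45 genes, with a median of 0.048. At an unadjusted p up to 0.05, limma gave 2 higher and 1 lower unpaired, and 6 higher and 2 lower with the block, and none passed adjustment. The shares of the whole array were 0.973% and 1.34% unpaired, and 2.72% and 3.51% with the block. Cox17, which carries copper to complex IV, gave 999, 1328 and 1058 with COUP-TFII siRNA and 1263, 1646 and 1433 with scrambled siRNA. It was lower in each pair, by 0.34, 0.31 and 0.44 (log2 fold change -0.36, SE 0.16, limma adjusted p = 0.644 with the block). Hccs, which attaches haem to cytochromes c and c1, gave 456, 561 and 467 against 416, 374 and 375 without overlap (0.34, SE 0.14, limma adjusted p = 1 unpaired and 0.768 with the block). Its second, dimmer probe set was at -0.18 (SE 0.39). The 3 probe sets of Cox15, an enzyme of haem a synthesis, were all higher in every pair (0.27, SE 0.15; 0.29, SE 0.21; and 0.20, SE 0.17). Taco1 at -1.97 (SE 0.75) rests on low signals, with 3.46, 5.32 and 18.2 against 16.1, 32.3 and 38.5. Of the 3 probe sets of Cox11 the one near background was at 2.75 (SE 0.94), and the others were at 0.26 (SE 0.24) and -0.27 (SE 0.48).

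The regulators include NRF1, the GABP subunit Gabpa and Tfam, which packages mitochondrial DNA and helps to start its transcription. They had 31 probe sets of 20 genes with a median of 0.0045 and 51.6% higher by mean. In limma 1 was higher and 0 lower unpaired at an unadjusted p up to 0.05, and 2 higher with the block (0.973%, 1.34% and 2.72% of all probe sets). Tfam gave 1091, 1325 and 1110 against 932, 1303 and 1000 (0.13, SE 0.17). Gabpa was at -0.00067 (SE 0.26), and the 3 probe sets of Nrf1 at 0.12, -0.077 and 0.78, with errors of 0.38, 0.25 and 0.61. Ppargc1a, a coactivator of mitochondrial genes, had 2 of its 3 probe sets near background. Of the 4 probe sets of Yy1 the brightest gave 879, 968 and 763 against 775, 984 and 908 (-0.031, SE 0.15). The others were low and disagreed, at -0.80 (SE 0.65), 0.34 (SE 0.47) and, near background, 2.85 (SE 0.87).

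Around the chain, the 19 probe sets of 14 citric acid cycle genes had a median of 0.021, the 22 of 19 genes of ubiquinone synthesis and electron entry 0.0066, and the 10 of 8 carriers of ADP, phosphate and protons 0.031. By mean 68.4%, 54.5% and 80.0% of them were higher with COUP-TFII siRNA, and 63.2%, 59.1% and 20.0% after quantile normalization. None of these passed an unadjusted p of 0.05 in the unpaired limma fit, and 2 were higher with the block, where 2.72% of all probe sets passed. They were Idh2, the mitochondrial NADP-dependent isocitrate dehydrogenase, with 1492, 2093 and 2046 against 1135, 1741 and 1681 (0.31, SE 0.21, limma adjusted p = 0.720 with the block), and Etfdh, which passes electrons of fatty acid oxidation to ubiquinone, with 207, 373 and 316 against 165, 338 and 232 (0.31, SE 0.30). Citrate synthase, often used as a measure of mitochondrial content, was close to 0 on its brightest probe set, with 2273, 2587 and 2138 against 2352, 2530 and 2175 (-0.014, SE 0.14). Its other probe sets were at -0.011 (SE 0.13), -0.10 (SE 0.12) and, on low signals, 1.23 (SE 0.62). The last gave 22.4, 33.5 and 26.4 against 15.5, 5.21 and 19.3 and was higher in every pair. The adenine nucleotide carriers Slc25a4 and Slc25a5 were at 0.025 (SE 0.15) and 0.15 (SE 0.17).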

How the data were processed

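The authors scanned 6 Affymetrix rat arrays. The values they deposited are linear intensities, 1 for each array and probe set, made with MAS5 (version not given in the sources used here), background-subtracted and normalized with reference probes. Of 31099 probe sets 57 controls were left out. The deposited intensities were floored at 1 and put on the log2 scale with no further normalization, so small shifts depend on how the arrays were scaled to each other. The table has no detection calls, so "near background" means a mean at or below 20.7 in both groups, the highest signal of 27 Bacillus control probe sets. Signals of different probe sets are not comparable as levels.

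Groups followed the labels. The test was that of limma 3.58.1 under R 4.3.3, with lmFit, then eBayes with its trend option, two-sided and without pairing as in the methods, with Benjamini-Hochberg adjustment over 31042 probe sets. Same-numbered arrays deviated together (correlations of 0.111, 0.231 and 0.163 over all probe sets, against -0.146 to -0.0104 for different numbers), so the numbers were taken to pair the arrays, and a fit that adds this number as a block is given where it changes a result. Over the members the same-numbered correlations were 0.305, 0.366 and 0.505. Those of different numbers ran from -0.584 to 0.251 there, so the highest was close to the lowest same-numbered value. The number of arrays, 3 per group, limits the precision.

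Symbols came from the platform annotation (1 symbol for 20826 probe sets, several for 436, none for 9780), and promoters from RefSeq (GRCr8). The members and gene lists were chosen with earlier results of these data known. A rule named 39 probe sets: the 3 lowest p above background in complexes I, III, IV and V, all of complex II, groups that did not overlap, isoform sets and core subunits. Other genes come from the lists, are further probe sets of a named gene, are named to explain the grouping, or are stated as picked after their values were seen. The fits were tested on simulated data. Alternatives were the methods' t-test, no trend, quantile normalization, median centring, log2(signal + 16), a filter at the median signal, the block, each array left out and 1 probe set per gene. Those without both arrays of replicate 2, and the block with the filter or with quantile normalization, were chosen after seeing the data. Plots were made in Python 3.11.15 (matplotlib 3.10.9).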

Additional observations from a re-analysis of the deposited data

How the results depend on the processing

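No respiratory chain probe set passed adjustment under any alternative run. At an unadjusted p up to 0.05 limma gave 0 members higher and 1 lower. The higher count was 1 with the filter at the median signal, with the replicate block, with the replicate block and quantile normalization, and with the methods' t-test (p up to 0.05), 5 with the replicate block and filter, and 0 to 1 with 1 array left out. The lower count was 0 with the filter, with log2(signal + 16) and with median centring, 2 with the replicate block and with the replicate block and filter, 3 with the replicate block and quantile normalization, and it ran from 0 to 1 over the fits that leave out an array. It was 0 without the COUP-TFII siRNA array of replicate 1 or 3 or the scrambled siRNA array of replicate 1, and the higher count was 1 without the scrambled siRNA array of replicate 3. The share of members higher by mean, 79.4%, was 60.8% without both arrays of replicate 2, 56.7% after quantile normalization and from 46.4% to 85.6% when each array was left out. With 1 array left out the median log2 fold change ran from -0.019 to 0.15 in complex I, from -0.057 to 0.15 in its assembly factors and from -0.19 to 0.093 in complex II. These moves follow the arrays left out or the scaling, and their cause was not tested. The Nr2f2 probe set at -2.65 passed adjustment with the replicate block (-2.65) and not without it. The block changed no other adjusted call among the results given.

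Of 43 named probe sets 25 changed sign under some alternative, none of them past a threshold. After quantile normalization these were Ndufs3 (-0.0019), Cyc1 (-0.0015), the brighter probe set of Uqcrc2 (-0.031), Cox6b1 (-0.0046), Cox8a (-0.045), Atp5f1a (-0.032) and Atp5mc3 (-0.0058). Without both arrays of replicate 2 they were Ndufs1 (-0.022), Ndufs7 (0.053), Sdhc (-0.027), Cyc1 (-0.054), Uqcrc2 (-0.016 and -0.022), Cox5a (-0.0028), Cox7a1 (0.017), Cox8a (-0.011), Cox8b (-0.12), Atp5f1a (-0.079), Atp5mc3 (-0.026), Ndufa5 (0.15) and the dim probe set of Atp5me (0.99). With 1 array left out the range was -0.068 to 0.17 for Atp5f1a, -0.33 to 0.29 for the dimmest probe set of Atp5if1, -1.04 to 0.54 for the dim probe set of Atp5me, -0.099 to 0.049 for Cox4i1, -0.074 to 0.50 for Cox4i2, -0.066 to 0.22 for Cox5b, -0.0027 to 0.20 for Cox6b1 and -0.082 to 0.50 for Cox8b. It was -0.14 to 0.28 for Cyc1, -0.48 to 0.26 for Ndufa5, -0.019 to 0.15 for Ndufs1, -0.16 to 0.21 for Ndufs3, -0.29 to 0.26 for Ndufs7, -0.091 to 0.23 for Ndufs8, -0.35 to 0.12 for Ndufv2 and -0.047 to 0.13 for Sdhc. For Sdhd it was -0.26 to 0.093 and -0.22 to 0.076, for Uqcrc2 -0.015 to 0.082 and -0.18 to 0.18, and for Uqcrfs1 -0.0092 to 0.23.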
